A study of Homo sapiens with 9 samples.

Results

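The 9 genes described here form the regulatory arm of the integrated stress response: the transcription factors ATF4, ATF3, ATF5 and DDIT3 (CHOP), and the effectors and feedback genes PPP1R15A (GADD34), TRIB3, CHAC1, DDIT4 (REDD1) and SESN2. They were chosen by gene name, and their members are all probe sets that the platform annotation assigns to 1 of these symbols, 17 of 54675 probe sets on the array and 9 of 19775 genes. Expression was measured in the human lymphoma line U937, whose cells resemble monocytes and grow unattached, on Affymetrix U133 Plus 2.0 arrays. Control cells stayed at 37 °C, and heated cells spent 15 min at 42 °C or 44 °C. Heated cells then recovered at 37 °C, with samples at 0, 1, 3 and 6 h. Each of the 9 conditions, 8 heated and 1 unheated, was measured on 1 array, and the control has no time in its label, so heat and time in culture cannot be told apart at later hours. The series title places the work in the study of cell death induced by heat.

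In the integrated stress response, kinases that sense unfolded protein, amino acid shortage, foreign RNA or heme loss phosphorylate the translation factor eIF2. Most protein synthesis then slows, while a few messages with short upstream reading frames, ATF4 and ATF5 among them, are translated better. ATF4 is therefore controlled largely at the level of translation. The ATF4 protein, often paired with a C/EBP factor, switches on DDIT3, ATF3, TRIB3, CHAC1, SESN2 and DDIT4, and PPP1R15A recruits a phosphatase that restores eIF2. Heat also engages heat shock factors, which act on other genes of the same cells.

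With 1 array per condition the error of a value is unknown, tests are not given and the values describe these arrays. In bulk RNA of this kind, fewer cells of a type and less RNA per cell cannot be told apart. Array signals were scaled to a common trimmed mean of 100, signals under a floor of 12.5 were raised to it, and a difference of 2-fold or more (1 in log2) is what "rose" or "fell" stands for below. Where a gene has several probe sets, the brightest is used for counts and the others are given beside it. As a measure of spread, the 500 genes nearest in signal to each member were followed in the same comparison, and the size that 95% of them stayed under is called the local spread. It includes any response of those genes. Of the 17 probe sets, 14 were above the floor on all 9 arrays. Deposited trimmed means ran from 101 to 211, and the array number limits precision throughout. Of 10 measured myeloid markers 9 were above the floor on all arrays, LYZ, SPI1 and CSF1R among them, and MPO was on none. Of 8 T cell markers 0 were above it on all arrays (CD3E and CD3G on none), and of 6 B cell markers 3 were, CD79A, PAX5 and BLNK. The summed signal of the B cell markers was 130 to 207 and that of the myeloid markers 7281 to 11904. Of 8 epithelial and fibroblast markers 4 were at the floor throughout, their sum ran from 39.7 to 341, and COL1A1 ran from 8.37 in the control to 268 at 6 h after 42 °C; the part of these markers in the results was not tested.

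The start sites of several members lie beside short DNA words that stress factors are known to read, and 3 promoters that hold such words are shown. They were picked because their genes moved on different schedules, and a link between words and schedules was not tested. Sequences are the 250 bases before the start site, from RefSeq on GRCh38.p14, in the direction of the gene. Capitals mark the letters TGATGNAA (read by C/EBP and ATF4 pairs), TGACGTCA or its core TGACG (read by factors of the ATF and CREB family) and GAANNTTC or TTCNNGAA (part of a heat shock element), searched on both strands. The core also lies within TGACGTCA. The CHAC1 window is chr15:40953221-40953470, the PPP1R15A window chr19:48872171-48872420 and the DDIT4 window chr10:72273674-72273923, all on the plus strand.
CHAC1: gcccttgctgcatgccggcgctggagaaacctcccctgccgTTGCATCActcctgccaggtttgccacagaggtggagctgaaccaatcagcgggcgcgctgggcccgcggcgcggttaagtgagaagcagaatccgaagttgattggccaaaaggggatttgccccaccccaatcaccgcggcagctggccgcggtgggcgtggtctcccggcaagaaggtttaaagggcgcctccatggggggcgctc
PPP1R15A: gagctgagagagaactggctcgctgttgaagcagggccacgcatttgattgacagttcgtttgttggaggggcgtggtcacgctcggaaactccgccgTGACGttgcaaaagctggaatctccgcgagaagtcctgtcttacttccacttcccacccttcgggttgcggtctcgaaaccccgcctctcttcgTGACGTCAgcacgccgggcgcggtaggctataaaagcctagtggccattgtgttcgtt
DDIT4: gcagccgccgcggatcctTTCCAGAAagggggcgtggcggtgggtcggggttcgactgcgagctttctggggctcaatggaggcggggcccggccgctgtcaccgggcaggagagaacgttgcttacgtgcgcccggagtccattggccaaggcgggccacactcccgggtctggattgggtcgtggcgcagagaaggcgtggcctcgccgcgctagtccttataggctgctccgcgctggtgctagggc

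All 9 genes matched the promoter table, with 16 windows of 300 bases that reach 50 bases past the start. TGATGNAA was present in 2 of these windows, at CHAC1 (209 bases upstream, as TTGCATCA on the other strand) and at 1 of the ATF3 starts (191 bases upstream, TGATGGAA), against 3.62% of all 35116 windows. TGACGTCA was present once, at PPP1R15A 58 bases upstream, against 1.85% of all windows. The core was found in 4 of the 16 windows, of ATF4 (overlapping windows), ATF5 and PPP1R15A, against 24.6% of all windows. The heat shock letters were found in 1 of the 16 windows, at DDIT4, 232 bases upstream, against 13.5% of all windows. No searched letters lay in the windows of DDIT3, TRIB3 and SESN2. These matches describe the letters in the windows, and their part in the expression of the genes was not tested.

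**Figure D1:**
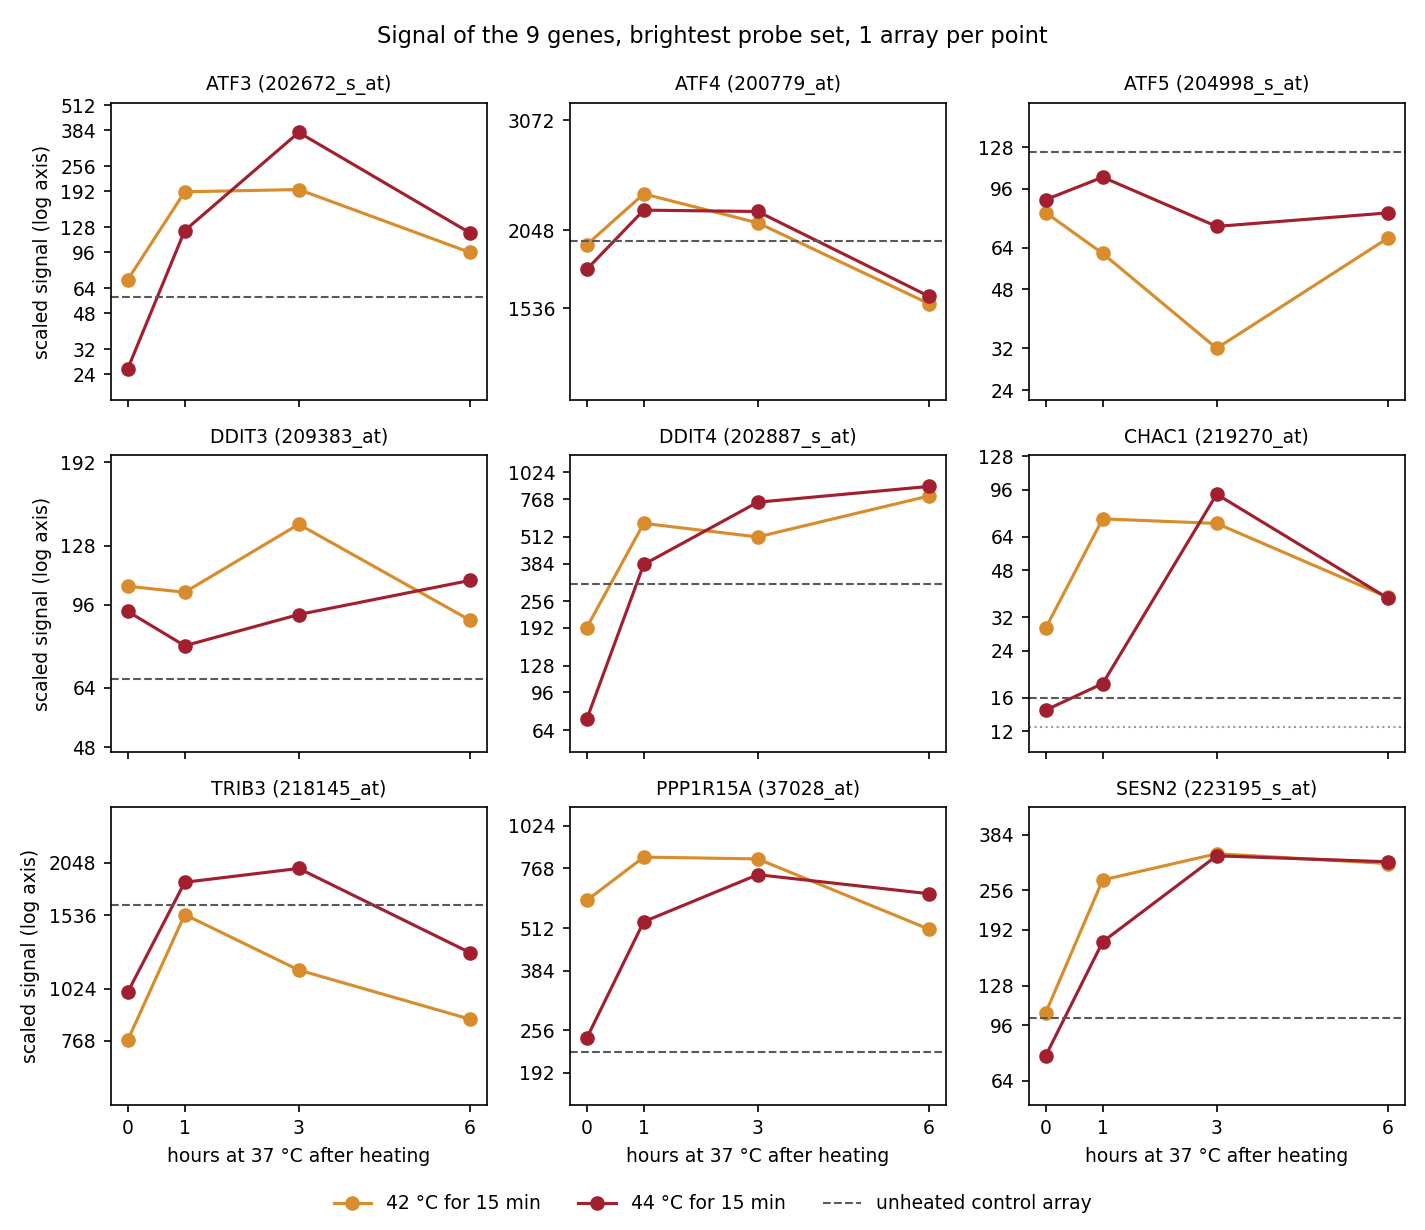
Scaled signal on a log axis of the brightest probe set of each gene against hours of recovery, for 42 °C (orange) and 44 °C (red), with the control array as a dashed line and, for CHAC1, the floor as a dotted line. Each point is 1 array, and the vertical range differs between panels. ATF4 stays between 1562 and 2341, while ATF3 at 44 °C goes from 25.6 at 0 h to 375 at 3 h.

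ATF4, the transcription factor at the head of the arm, stayed within 1.26-fold of the control on every heated array. Its scaled signal was 1970 in the control, 1941, 2341, 2104 and 1562 at 0, 1, 3 and 6 h after 42 °C, and 1772, 2205, 2194 and 1605 at the same times after 44 °C. It rose or fell on 0 of the 8 heated arrays, and without scaling its lowest log2 fold was -0.94, at 6 h after 42 °C. The highest value, at 1 h after 42 °C, was 1.19-fold above the control (log2 fold 0.25, local spread 0.54), and the lowest, at 6 h after 42 °C, was 1.26-fold below it (log2 fold -0.33, local spread 0.75). Both temperatures gave the same order, with the lowest values at 6 h. The array measures RNA, and ATF4 protein was not analysed here.

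ATF3, an early repressor and activator of stress genes, moved most among the transcription factors. Its brightest probe set read 57.9 in the control, 70.4, 191, 196 and 96 at 0, 1, 3 and 6 h after 42 °C, and 25.6, 123, 375 and 120 after 44 °C. It was low directly after 44 °C, high at 1 and 3 h at both temperatures, and back within 2-fold of the control at 6 h after 42 °C. The value at 3 h after 44 °C was 6.49-fold above the control (log2 fold 2.70, local spread 1.14), and 16 of 19775 genes rose more on that array. The fall at 0 h after 44 °C was 2.26-fold (log2 fold -1.18, local spread 0.77).

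The other ATF3 probe sets gave a different early picture. Probe set 1554980_a_at read 18 in the control, 23.3, 29, 30.8 and 22 after 42 °C, and 27.4, 32.6, 74.5 and 59.3 after 44 °C. It therefore stood above the control at 0 h after 44 °C (log2 fold 0.61), where the brightest probe set fell, and with the median of all ATF3 probe sets that fall becomes a log2 fold of 0.51. By that median the rises at 1 and 3 h after 42 °C were 0.69 and 0.78, and that at 1 h after 44 °C was 0.875. Probe set 1554420_at was under the floor in the control and at 0 h and was highest at 1 h after 44 °C, with 32.9, at least 2.63-fold above the control. All 3 probe sets had their highest value at 44 °C, at 3 h for the first pair and at 1 h for the dimmest.

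DDIT3, a partner of C/EBP factors linked to cell death under lasting stress, passed 2-fold once. Its single probe set read 66.8 in the control, 105, 102, 142 and 89.1 at 0, 1, 3 and 6 h after 42 °C, and 92.9, 78.6, 91.5 and 108 after 44 °C. All 8 heated arrays were above the control (7 without scaling, with -0.19 at 6 h after 42 °C), and 1 passed 2-fold, that at 3 h after 42 °C (2.13-fold, log2 fold 1.09, local spread 1.24). That rise lay inside the local spread, and with log2 of the signal plus 16 it was 0.93. Without scaling it was 0.38, and against the 0 h array in place of the control it was 0.43.

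ATF5, which like ATF4 is regulated through upstream reading frames, was lower in heated cells. Its brightest probe set read 124 in the control, 81.5, 61.5, 32 and 68.3 at 0, 1, 3 and 6 h after 42 °C, and 89.1, 104, 74.1 and 81.3 after 44 °C. All 8 heated arrays were below the control (without scaling the array at 1 h after 44 °C had 0.10), and 2 passed 2-fold, at 1 h (2.02-fold) and 3 h (3.88-fold) after 42 °C. At 3 h the log2 fold was -1.96, with a local spread of 1.35, and 32 genes fell more. The log2 fold at 1 h was -1.01, inside its local spread of 1.06. With the median of all 4 probe sets, of which 2 are near the floor, the values at 1 and 3 h were -0.24 and -0.65.

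A further ATF5 probe set, 204999_s_at, was also highest in the control, with 59.8, against 19.3, 41.9, 24.5 and 26.3 after 42 °C and 37.1, 39.5, 39.4 and 22 after 44 °C. Its lowest value lay at 0 h after 42 °C (log2 fold -1.63), where the brightest probe set had -0.60. The remaining pair of ATF5 probe sets was at or near the floor on all arrays, with a highest scaled signal of 13.7. ATF5 was thus lower after heat in both probe sets that gave a signal, while the time of its lowest value differed between them.

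**Figure D2:**
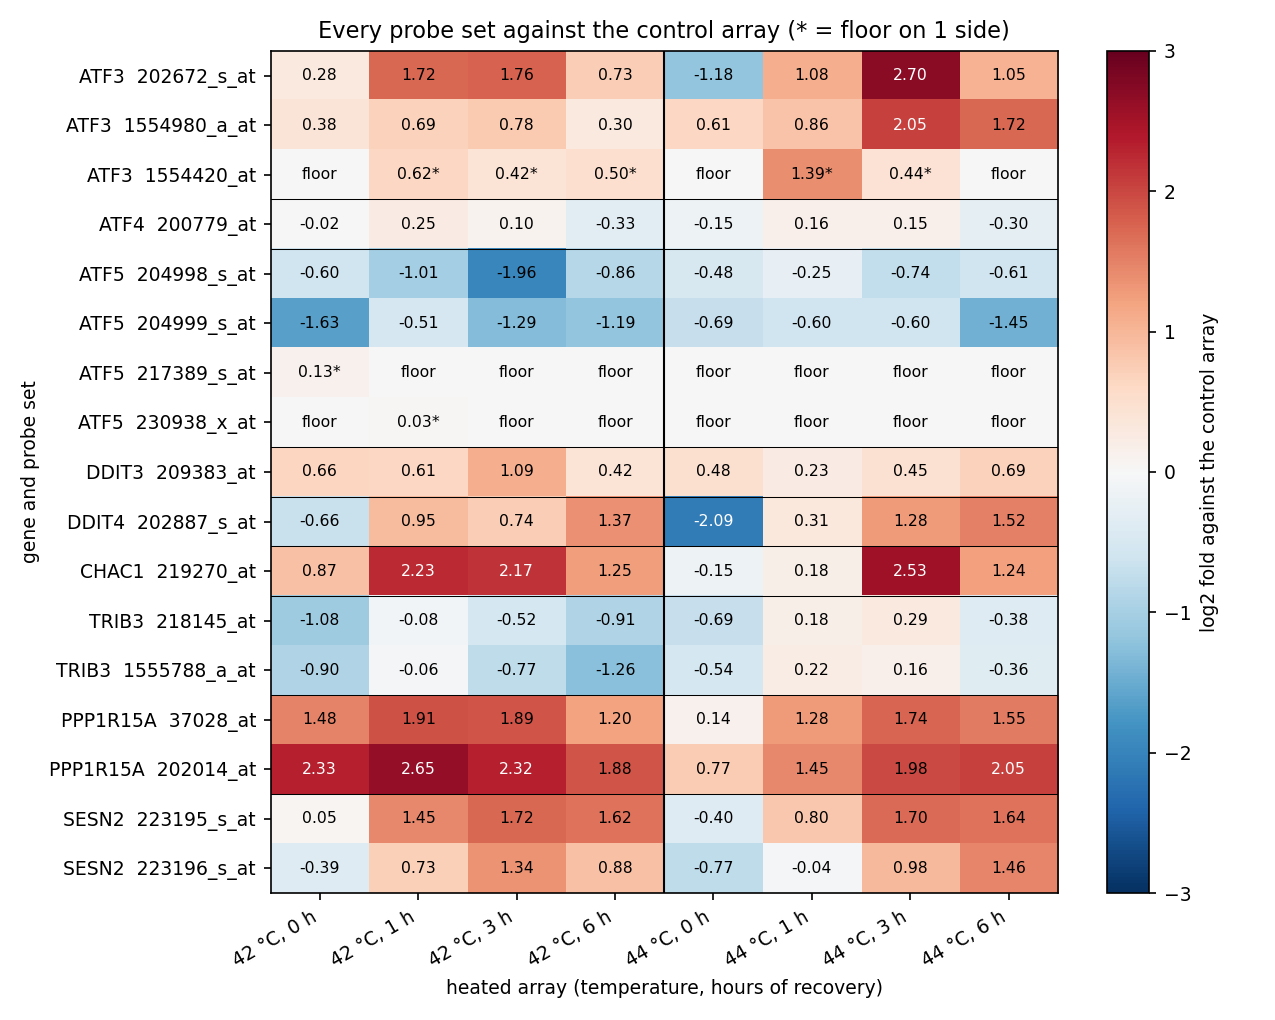
Log2 fold against the control array for each of the 17 probe sets (rows) on the 8 heated arrays (columns), with the value written in each cell, red for higher and blue for lower. An asterisk marks a fold with the floor on 1 side and "floor" a cell with both sides at it. PPP1R15A is red on every array, and both bright ATF5 probe sets are blue on every array.

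PPP1R15A, the stress-induced subunit that directs protein phosphatase 1 to eIF2, was the earliest member to rise. Its brightest probe set read 221 in the control, 618, 829, 819 and 509 at 0, 1, 3 and 6 h after 42 °C, and 243, 535, 736 and 647 after 44 °C. At the end of heating it was already 2.80-fold up after 42 °C (log2 fold 1.48, local spread 0.81) and 1.10-fold above the control after 44 °C. Both probe sets passed 2-fold on 7 of the 8 heated arrays. The second, 202014_at, read 121 in the control, 608, 760, 606 and 447 after 42 °C, and 206, 331, 477 and 501 after 44 °C, with its largest log2 fold, 2.65, at 1 h after 42 °C. Only 39 genes rose more than PPP1R15A at 0 h after 42 °C. Against the 0 h array in place of the control, its log2 fold at 6 h after 42 °C was -0.28.

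TRIB3, a pseudokinase that binds ATF4 and AKT and dampens both, stood lower at 42 °C. Its brightest probe set read 1624 in the control, 770, 1540, 1134 and 865 at 0, 1, 3 and 6 h after 42 °C, and 1004, 1841, 1987 and 1249 after 44 °C. By this probe set the array at 0 h after 42 °C passed 2-fold (2.11-fold lower, log2 fold -1.08, local spread 0.75, and -0.99 with the median of its probe sets). The array at 6 h after 42 °C passed it with that median (-1.08), with a common median of arrays (-1.17) and without scaling (-1.52), and the array at 3 h without scaling (-1.23). After 44 °C the arrays at 1 and 3 h were above the control by 1.13-fold and 1.22-fold. The second probe set, 1555788_a_at, read 370 in the control, 199, 356, 217 and 155 after 42 °C and 255, 432, 414 and 289 after 44 °C, and fell by 1.26 in log2 at 6 h after 42 °C, where the first had -0.91. At both temperatures the value at 1 h was above that at 0 h, and the value at 6 h was below that at 3 h.

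CHAC1, which breaks down glutathione and is a sensitive target of ATF4, rose at both temperatures but at different times. It read 16 in the control, 29.2, 74.8, 71.9 and 38.1 at 0, 1, 3 and 6 h after 42 °C, and 14.4, 18.1, 92.5 and 37.8 after 44 °C. After 42 °C it was high at 1 and 3 h, and after 44 °C at 3 h. It was 4.68-fold up at 1 h after 42 °C (log2 fold 2.23, local spread 1.24), where the 44 °C array had 0.18, and 5.79-fold up at 3 h after 44 °C (log2 fold 2.53, local spread 1.14). All these folds rest on a control signal near the floor. With a floor of 34.1, which the control then sits at, CHAC1 was at least 2.19-fold higher at 1 h after 42 °C and at least 2.71-fold higher at 3 h after 44 °C, and the rises of 2.38-fold and 2.37-fold at 6 h were 0.16 and 0.15 in log2.

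DDIT4 and SESN2 both restrain mTORC1, the kinase complex that drives growth, DDIT4 through TSC2 and SESN2 through the leucine-sensing branch. DDIT4 read 307 in the control, 193, 591, 511 and 793 at 0, 1, 3 and 6 h after 42 °C, and 72, 380, 742 and 879 after 44 °C. It was below the control at the end of heating at both temperatures and highest at 6 h at both. At 0 h after 44 °C it fell 4.26-fold (log2 fold -2.09, local spread 0.61), and 8 of 19775 genes fell more. By 6 h it had risen 2.59-fold after 42 °C (log2 fold 1.37, and 0.76 without scaling) and 2.87-fold after 44 °C.

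SESN2 read 101 in the control, 105, 276, 334 and 311 at 0, 1, 3 and 6 h after 42 °C, and 76.8, 176, 329 and 315 after 44 °C. It rose at 1 h after 42 °C (2.73-fold) and at 3 h after 44 °C, and by this probe set then stayed within 1.07-fold from 3 to 6 h at both temperatures. At 3 h the folds were 3.30 and 3.25, with log2 folds of 1.72 and 1.70 against local spreads of 1.05 and 0.74. The second probe set, 223196_s_at, read 71.4 in the control, 54.4, 118, 181 and 131 after 42 °C and 41.9, 69.6, 140 and 196 after 44 °C. Its rises were smaller, with 1.34 in log2 at 3 h after 42 °C and 1.46 at 6 h after 44 °C. On the other 3 arrays where the first probe set passed 2-fold it had 0.73 and 0.88 (1 and 6 h after 42 °C) and 0.98 (3 h after 44 °C).

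Counted over the 9 genes, the array at 0 h after 42 °C had 1 that rose (PPP1R15A) and 1 that fell (TRIB3), where 0.93% of all genes rose and 2.41% fell. At 1 h the counts were 4 (CHAC1, PPP1R15A, ATF3, SESN2) and 1 (ATF5), where 1.9% and 1.53% of all genes did. At 3 h they were 5, now with DDIT3, and 1 (ATF5), against 1.98% and 3.08%. Without scaling they were 4 and 2 at 3 h, as DDIT3 (0.38) lost 2-fold and TRIB3 (-1.23) passed it. At 6 h the counts were 4 (SESN2, DDIT4, CHAC1, PPP1R15A) and 0, against 2.59% and 2.38%. These 6 h counts depend on the scaling: with a common median they were 2 and 2, and without scaling 1 and 2, as DDIT4 (0.76), CHAC1 (0.64) and PPP1R15A (0.60) lost 2-fold and ATF5 (-1.47) and TRIB3 (-1.52) passed it. The median log2 fold of the 9 genes after 42 °C was 0.05, 0.95, 1.09 and 0.73 at 0, 1, 3 and 6 h, and that of all genes was 0.

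After 44 °C the 9 genes had 0 that rose and 2 that fell (DDIT4, ATF3) at 0 h, where 0.855% of all genes rose and 1.03% fell. At 1 h the counts were 2 (PPP1R15A, ATF3) and 0, against 0.925% and 0.455%. At 3 h they were 5 (ATF3, CHAC1, PPP1R15A, SESN2, DDIT4) and 0, against 1.16% and 1.41%, and at 6 h the 5 named at 3 h and 0, against 2.51% and 2.64%. The 6 h rises of ATF3 and CHAC1 lay inside their local spreads of 1.27 and 1.45. With log2 of the signal plus 16 these rises were 0.88 and 0.75. The ATF3 rise at 1 h was 0.97 with a common median, 0.91 with plus 16 and 0.875 with the median of probe sets. The medians of the 9 genes after 44 °C were -0.40, 0.24, 1.28 and 1.05 at 0, 1, 3 and 6 h. Over all 72 values of the 8 arrays there were 26 rises and 5 falls, and without scaling 23 and 8. The 8 comparisons share the control array, so an error in that array would enter each of them.

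To see the effect of temperature without the control, arrays of equal recovery time were compared, 44 °C over 42 °C. At the end of heating 4 of the 9 genes were lower at 44 °C by 2-fold or more and 0 were higher, where 0.753% of all genes were lower and 1.593% higher. ATF3 had 25.6 against 70.4 (2.75-fold lower), DDIT4 72 against 193 (2.69-fold), PPP1R15A 243 against 618 (2.55-fold) and CHAC1 14.4 against 29.2 (2.03-fold). The log2 differences were -1.46, -1.43, -1.35 and -1.02, with local spreads of 1.01, 0.65, 0.56 and 1.11. The CHAC1 difference lay inside its spread, and with the median over probe sets that of ATF3 was 0.13. Heat shock genes were lower on the same array, with 6 of 10 reference genes down and a median of -1.86.

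At 1 h CHAC1 was still 4.13-fold lower at 44 °C (18.1 against 74.8, log2 difference -2.05, local spread 0.99), the sole one of the 9 below by 2-fold, with 0 above, against 1.27% and 1.01% of all genes. Of all 19775 genes 11 were lower by more. The size and rank of this CHAC1 difference rest on a 44 °C signal near the floor. By their brightest probe sets PPP1R15A, SESN2, DDIT4 and ATF3 had log2 differences between -0.65 and -0.63, and without scaling between -0.05 and -0.03, where CHAC1 had -1.45. The other ATF3 probe sets were higher at 44 °C (0.17 and 0.78), and 202014_at of PPP1R15A was lower by 2-fold or more (-1.20). Of the 10 heat shock reference genes 5 were lower.

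At 3 h 6 of the 9 genes had a value above 0. ATF3 was 1.91-fold higher at 44 °C (375 against 196), TRIB3 1.75-fold (1987 against 1134) and DDIT4 1.45-fold (742 against 511), and CHAC1 (1.29-fold higher) and SESN2 (1.01-fold lower) were close. For ATF3 the probe set 1554980_a_at was 2.42-fold higher, and the gene passed 2-fold with the median of probe sets (1.27), a common median (1.08) and no scaling (1.95). ATF5 was the sole one past 2-fold by the brightest probe set, 2.32-fold higher (74.1 against 32, log2 difference 1.21, local spread 0.89), with 0 lower, against 1.02% and 0.976% of all genes. That ATF5 value was 0.34 with the median of probe sets and 0.91 with log2 of the signal plus 16. DDIT3 was 1.55-fold lower. TRIB3's difference of 0.81 lay outside its local spread of 0.55, and its second probe set had 0.93. On these arrays 10 housekeeping genes had a median of -0.52, and 3 of 10 heat shock genes were still lower.

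At 6 h 0 members were higher and 0 lower by 2-fold by their brightest probe sets, against 0.85% and 1.37% of all genes. The 9 log2 differences by these probe sets ran from -0.01 (CHAC1) to 0.53 (TRIB3, local spread 0.51). The second TRIB3 probe set had 289 at 44 °C against 155, and the second SESN2 probe set 196 against 131. ATF3 had 0.32 by its brightest probe set and 1.43 by 1554980_a_at. TRIB3 and ATF5 were higher at 44 °C at all 4 times by their brightest probe sets (ATF5 at 0 h had -0.02 with quantile normalisation). By 204999_s_at ATF5 was lower at 44 °C at 1 h (39.5 against 41.9) and at 6 h (22 against 26.3). Over the 36 values of the 4 times there was 1 call higher and 5 lower. Without scaling the split was 12 higher and 4 lower (ATF4 at 3 h, for example, had 1.08), where the 42 °C arrays at 3 and 6 h had the lowest deposited signal, and with arrays brought to a common median it was 2 and 5.

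**Figure D3:**
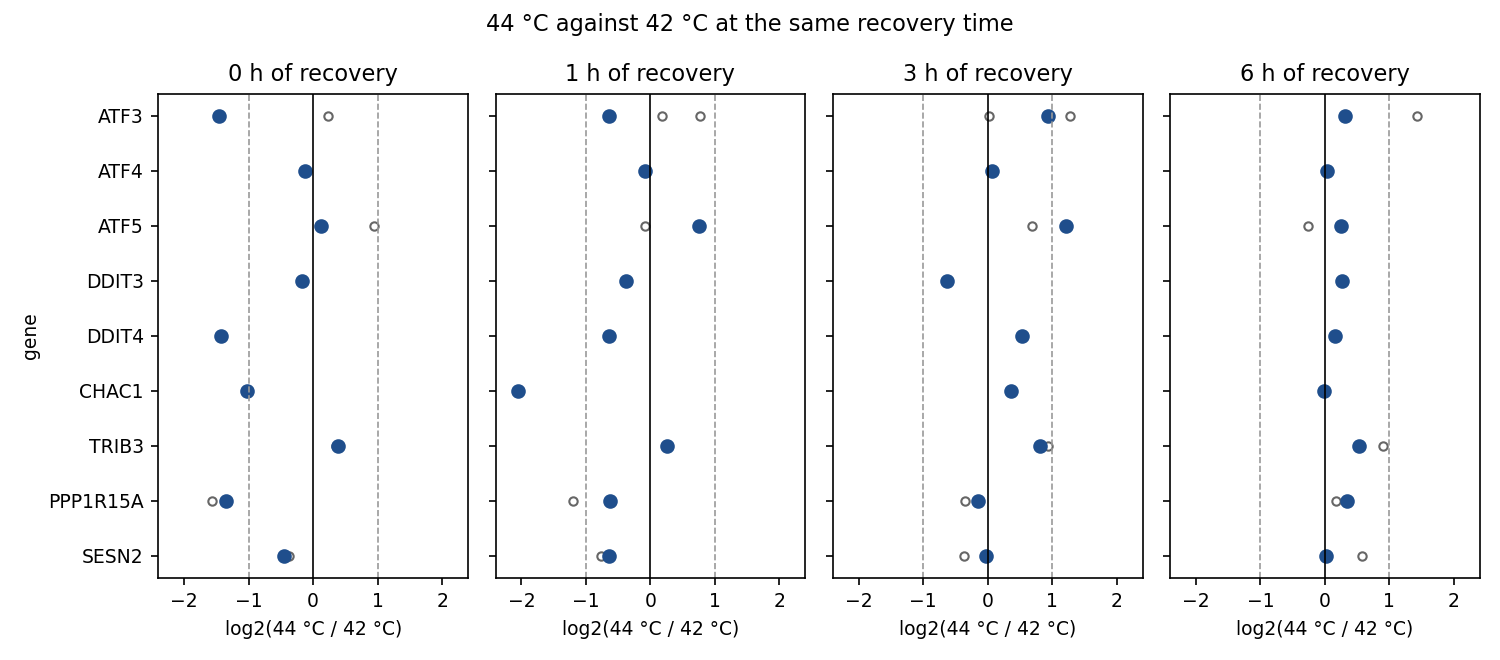
Log2 difference of the 44 °C array from the 42 °C array for each gene at each recovery time. Filled points are the brightest probe sets, open points other probe sets above the floor on both arrays, and dashed lines mark 2-fold. At 0 h 4 filled points lie left of -1, and at 6 h all filled points lie between -0.01 and 0.53.

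Changes from one recovery time to the next use neither the control nor the other temperature. In the first hour after 42 °C 4 members rose: DDIT4 (3.06-fold), ATF3 (2.72-fold), SESN2 (2.63-fold) and CHAC1 (2.56-fold), where 2.09% of all genes did. TRIB3 went from 770 to 1540, just short of the rule. In the first hour after 44 °C 4 rose, DDIT4 (5.28-fold), ATF3 (4.79-fold), SESN2 (2.30-fold) and PPP1R15A (2.21-fold), where 1.47% of all genes did, and 13 and 15 genes rose more than DDIT4 and ATF3. With the median of probe sets, 3 of the 4 rises after 44 °C did not pass 2-fold, those of ATF3 (0.37 in log2), PPP1R15A (0.91) and SESN2 (0.97), nor did that of ATF3 after 42 °C (0.31). CHAC1 had a log2 step of 0.33 in the first hour after 44 °C.

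From 1 to 3 h after 44 °C CHAC1 rose 5.11-fold, from 18.1 to 92.5, and ATF3 3.06-fold, from 123 to 375, where 0.506% of all genes rose, and 3 genes rose more than CHAC1. The size and rank of this CHAC1 step rest on a 1 h signal near the floor. After 42 °C the same step was -0.06 for CHAC1 and 0.04 for ATF3 in log2. From 3 to 6 h ATF3 and CHAC1 fell after 44 °C (3.14-fold and 2.45-fold, where 0.85% of all genes fell), and ATF3 fell after 42 °C (2.05-fold, where 1.2% fell). With the median of probe sets these ATF3 steps were -0.33 and -0.48, and the step after 42 °C was -0.93 without scaling and -0.92 with plus 16. CHAC1 after 42 °C, with -0.92, passed 2-fold with quantile normalisation and with a common median (both -1.10). ATF5 rose from 32 to 68.3 in that step after 42 °C (2.13-fold, where 2.37% of all genes rose), where its second probe set had a log2 step of 0.10.

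Upstream of the 9 genes stand the eIF2 kinases, which sense stress, and eIF2 itself. Of 6 genes for the eIF2 kinases and regulators of GCN2, 0 passed 2-fold at 0, 1 and 3 h at either temperature. EIF2AK3 (PERK), the kinase of the endoplasmic reticulum, rose at 6 h from 79.9 to 174 after 42 °C (2.17-fold) and to 186 after 44 °C (2.33-fold), the sole gene of the 6 to do so. Of all genes 2.59% and 2.51% rose on those arrays. Its log2 folds were 1.12 and 1.22, and its own local spread was not computed. Members of like signal (ATF3, ATF5 and DDIT3) had local spreads of 1.18 to 1.30 there. Of 8 genes for subunits of eIF2 and its exchange factor eIF2B, 0 rose and 0 fell on any heated array, with list medians between -0.11 and 0.19.

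PPP1R15A has a constitutive relative, PPP1R15B, which fell where PPP1R15A rose at the end of 42 °C heating. It keeps eIF2 dephosphorylated in unstressed cells and read 737 in the control, 210, 316, 358 and 844 at 0, 1, 3 and 6 h after 42 °C, and 569, 499, 394 and 600 after 44 °C. It fell 3.50-fold at 0 h after 42 °C on the array where PPP1R15A rose 2.80-fold, and it was 2.70-fold higher at 44 °C than at 42 °C at that time, where PPP1R15A was 2.55-fold lower. DNAJC3, an inhibitor of eIF2 kinases, fell 2.19-fold at 0 h after 44 °C, with other probe sets between -1.54 and -0.30 in log2.

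Among 13 genes for dimer partners of the bZIP members, 5 fell and 0 rose at 0 h after 42 °C, led by CEBPB (1896 to 626, log2 fold -1.60), JUND (-1.33), MAFF (-1.32, and -0.21 by another probe set) and JUN (-1.23). Of all genes 2.41% fell and 0.93% rose on that array. After 44 °C 2 fell at 0 h, JUN (-1.81) and JUND (-1.30), where 1.03% of all genes fell. JUN then rose after 44 °C, to 1123 at 1 h and 1510 at 3 h from 503 in the control, where the 42 °C arrays had 640 and 591. Its other probe sets at 3 h after 44 °C ran from 0.08 to 1.60 in log2.

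Of 12 paralogs of the members, 2 rose at 3 h at each temperature, where 1.98% of all genes did after 42 °C and 1.16% after 44 °C. TRIB1, a relative of TRIB3, read 87.4 in the control, 125, 455, 300 and 110 after 42 °C, and 42.7, 185, 560 and 202 after 44 °C, so that it was low at 0 h after 44 °C and highest at 3 h. SESN3, a relative of SESN2, went from 14.5 in the control, near the floor, to 43.7 at 3 h after 42 °C and 34.6 after 44 °C. Other SESN3 probe sets ran from 0.21 to 1.96 in log2 at 3 h after 42 °C, and 0 of them were off the floor in the 44 °C comparison. Another TRIB1 probe set had log2 folds of 0.03 and 0.70 at 3 h after 42 °C and 44 °C, against 1.78 and 2.68.

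Among 18 amino acid genes that ATF4 controls, 3 fell and 0 rose at 0 h at each temperature, where 2.41% of all genes fell after 42 °C and 1.03% after 44 °C. The list medians were -0.40 and -0.29. The genes that fell were SLC7A11, the cystine transporter, CTH, of cysteine synthesis, and ASNS, which makes asparagine. CTH read 300 in the control, 72.6 at 0 h and 482 at 1 h after 42 °C, and 87 and 367 after 44 °C. ASNS read 309, then 93.6 and 349 after 42 °C and 114 and 288 after 44 °C, and SLC7A11 read 474, then 108 and 390 after 42 °C and 134 and 383 after 44 °C. From 0 to 1 h 4 of 18 rose at each temperature, these genes and PSAT1 of serine synthesis, 2.11-fold and 2.09-fold. Of all genes 2.09% rose in that hour after 42 °C and 1.47% after 44 °C. At 3 h 1 of 18 was above the control by 2-fold after 42 °C, the glutamine carrier SLC38A2 (log2 fold 1.04), and 0 after 44 °C, with list medians of 0.09 and 0.08. Of 12 cytosolic tRNA synthetases 0 rose and 0 fell on any heated array.

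**Figure D4:**
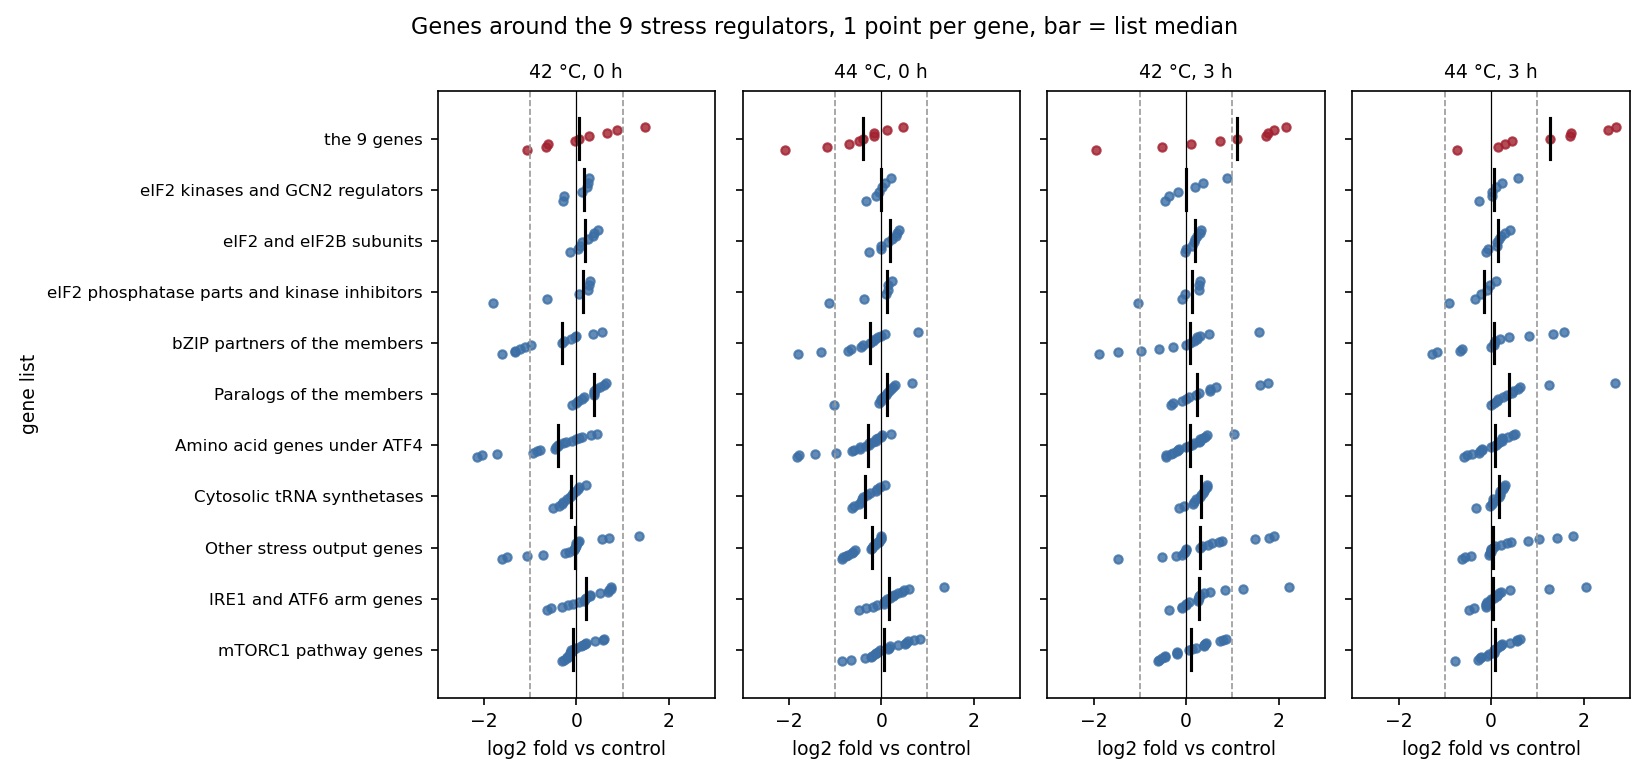
Log2 fold against the control of every measured gene of the 9-gene arm (red) and of 10 lists around it (blue), at 0 h and 3 h after each temperature, with the list median as a bar and 2-fold as dashed lines. At 3 h the median of the 9 genes is 1.09 after 42 °C and 1.28 after 44 °C, and the medians of the 10 lists lie between -0.16 and 0.39.

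Among 17 stress output genes, which share CEBPB and NARS1 with lists above, 3 rose at 3 h at each temperature. On those arrays 1.98% of all genes rose after 42 °C and 1.16% after 44 °C. At 3 h after 42 °C 1 fell, CEBPB (log2 fold -1.47), and after 44 °C 0 did, against 3.08% and 1.41% of all genes. PMAIP1 (NOXA), a death-promoting BH3-only gene, went from 496 to 1715 after 42 °C and to 1326 after 44 °C. KLHL24 was the third after 42 °C (log2 fold 1.49) and GADD45A after 44 °C (1.03). TXNIP, which binds thioredoxin and limits glucose uptake, went from 312 to 1160 and 1066. At the end of heating TXNIP was 797 after 42 °C and 174 after 44 °C, a log2 difference of -2.20, with -2.32 and -2.03 by its other probe sets. On the 0 h array after 42 °C TXNIP was the 1 gene of the list to rise, where 0.93% of all genes did. On it 3 fell, where 2.41% of all genes did: CEBPB (-1.60), VLDLR (-1.49) and TNFRSF10B (-1.06, and -0.36 and -0.01 by its other probe sets). NUPR1, a stress cofactor, was under the floor in the control and rose at least 2.17-fold at 6 h after 42 °C.

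The genes whose course over the 8 heated arrays was nearest to that of a member were found by the root mean square difference of their log2 folds, over 9913 genes above the floor on all arrays. The nearest to ATF3 were TRIB1 (0.29), IER3 (0.30), an early gene that modulates cell death, and CLK1 (0.53), a splicing kinase. The nearest to CHAC1 were ZNF436 (0.34), USPL1 (0.41) and CLK1 (0.41), to SESN2 MYLIP (0.29), PMAIP1 (0.33) and FBXL14 (0.36), and to DDIT4 TREM1 (0.45), CCN3 (0.48) and SGK1 (0.48). PPP1R15A had WDR47 (0.30), ZNF436 (0.35) and FBXL14 (0.36), and ATF5 had MEPCE (0.20), VDR (0.23) and C6orf120 (0.25). For TRIB3 they were TP53INP2 (0.19), PLPP1 (0.20) and FAM168A (0.21), and for DDIT3 TUBD1 (0.17), GPATCH2 (0.18) and ALOX5AP (0.19). All these courses share the 9 arrays and the control.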

How the data were processed

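For 9 arrays, the authors deposited a linear intensity value per probe set, made with MAS5 per the submitters' processing notes. Its version and scaling target were not given in the sources used here. Factors of 0.474 to 0.989 brought every array to a 2% trimmed mean of 100 over 54613 non-control probe sets. A floor of 12.5, the median scaled signal, was applied before log2. Probe sets were named by the platform annotation, 41091 with 1 symbol apart from controls, of which 41037 matched RefSeq by gene number. A gene was represented by its brightest probe set, by mean log2 signal. Groups came from the treatment labels. The 18 comparisons, heated against control (8), 44 °C against 42 °C (4) and neighbouring recovery times (6), had 1 array a side, so no test was run and the size rule was 2-fold. The 9 members were named whatever their values. Other genes named are members of the lists past 2-fold, at most 4 in each direction by size, and the 3 genes nearest in course to a member that passed 2-fold. The members, lists and rules were chosen with earlier results of these data known. The steps were tested on simulated arrays with known changes. Python 3.11.15 with pandas 2.3.3 was used. Alternatives were other scalings, floors, probe set rules, size rules and baselines.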

Additional observations from a re-analysis of the deposited data

How the results depend on the processing

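With 1 array per condition, replicate error cannot be judged. With a floor of 34.1, 4 calls were lost, 3 of CHAC1 and 1 of ATF3. Of 162 member values over the 18 comparisons, 51 passed 2-fold. With quantile normalisation 50 of these stayed past it and 3 were added, with a floor at the 25th percentile 51 stayed and 0 were added, with a floor at the 65th percentile (34.1) 47 stayed, with a common median 47 stayed and 6 were added, without scaling 45 stayed and 17 were added, with log2 of the signal plus 16 40 stayed, and with the median of probe sets 35 stayed and 3 were added. Reversals were ATF3 at 0 h after 44 °C with the median of probe sets, 0.51 against the control and 0.13 against 42 °C, and PPP1R15A at 6 h after 42 °C against the 0 h array, -0.28. Against the control there were 26 calls higher and 5 lower. Calls lower were 8 without scaling, 3 with plus 16 and 2 with the median of probe sets, and over 1 to 6 h 1 against the 0 h arrays in place of 2. Between temperatures (1 higher, 5 lower), calls higher were 2 with a common median, 12 without scaling, 0 with plus 16 and 2 with the median of probe sets. Between recovery times (11 higher, 3 lower), the median of probe sets gave 6 and 1. At 1.5-fold the calls were 34 higher and 12 lower against the control, 4 and 10 between temperatures, and 16 and 8 between times. At 3-fold they were 13 higher and 2 lower, 0 and 1, and 5 and 1. The cause of these moves was not tested, beyond the change of threshold itself. Without scaling the median of all genes moved by up to 0.57 in log2 (44 °C against 42 °C at 3 h).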

Other observations

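The unfolded protein response has parallel arms run by IRE1 and ATF6. At 3 h their genes had a median log2 fold of 0.27 after 42 °C and 0.035 after 44 °C. Of 16 measured, 2 rose at 3 h at each temperature and 0 fell. Of all genes 1.98% rose and 3.08% fell after 42 °C, and 1.16% and 1.41% after 44 °C. The genes that rose were DNAJB9, a chaperone of the endoplasmic reticulum (178 in the control, 831 after 42 °C and 743 after 44 °C), and HERPUD1, a part of its degradation machinery (498, 1165 and 1178). At 6 h DNAJB9 was still above the control, by 1.26 in log2 after 42 °C and 2.01 after 44 °C. CALR, a calcium-binding chaperone, was 2173 at 0 h after 44 °C against 854 in the control, a log2 fold of 1.35, with 1.10 and 1.42 by its other probe sets.

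A further list held genes of the mTORC1 pathway, on which DDIT4 and SESN2 act. Of 18 measured, 1 rose, DEPDC5 at 1 h after 42 °C (log2 fold 1.22), and 1 fell, WDR24 at 6 h after 44 °C (-1.19), over the 8 heated arrays. Of all genes 0.855% to 2.59% rose and 0.455% to 3.08% fell on single heated arrays. Both calls involve signals near the floor, 23.3 for DEPDC5 in the control and 18.5 for WDR24 at 6 h after 44 °C. KLHL24, a ubiquitin ligase adaptor, went from 43.8 in the control to 179 at 6 h after 42 °C and 143 after 44 °C, and its other probe sets at 6 h after 44 °C ran from -0.03 to 2.51 in log2.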
